A study of Danio rerio with 9 samples.

Results

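Solute carriers outside mitochondria were examined in zebrafish larvae exposed to neomycin, or to tacrine and then neomycin. The set holds every gene whose symbol starts with slc and a number, apart from the mitochondrial family 25 and apart from slc3a2b, slc4a1a, slc16a3b and slc17a8. Of the 12900 genes that the array's probes could be named for, 222 met this rule, in 48 families. Their 405 probes included 334, for 192 genes, that were bright enough to be tested.

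Whole larvae at 5 days post fertilization were compared in 3 groups of 3 arrays each. Control larvae were kept in 1% DMSO for 1 h and then in vehicle for 1 h. Neomycin larvae had the same 1% DMSO for 1 h and then 200 µM neomycin for 1 h. The larvae given both compounds had 50 µM tacrine for 1 h in place of the DMSO and then 200 µM neomycin for 1 h. Neomycin belongs to the aminoglycosides, antibiotics toxic to the hair cells of the lateral line, and tacrine inhibits acetylcholinesterase. No DMSO level is stated for the tacrine pretreatment and no group had tacrine alone, so tacrine, a change of solvent and an interaction with neomycin cannot be told apart. The labels name no strain. RNA came from the whole body, so fewer cells of a type and less RNA per cell cannot be told apart.

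Solute carriers are membrane proteins that move ions, nutrients and metabolites, either down a gradient or coupled to sodium, protons or chloride. The number after slc gives the family, and families mostly share a class of solute. Families 20 and 34 carry phosphate with sodium, family 13 carries sulfate and dicarboxylates, and family 10 includes the bile acid carriers of liver and intestine. Families 1, 7 and 38 carry amino acids, families 4, 12 and 26 carry bicarbonate, chloride and sulfate, and families 8, 9 and 24 exchange sodium for calcium or protons. In fish these functions are spread over the intestine, the kidney and the ionocytes of the skin. A few genes that meet the rule are not carriers outside mitochondria in the strict sense: slc34a2aas is an antisense gene, slc7a6os is the opposite-strand neighbour of slc7a6, and slc30a9 is known from human cells as a zinc exporter of mitochondria. The families of slc67a1 and of these genes were kept as the symbols give them, and slc67a1 was placed in no solute class.

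Levels are given as log2 signal relative to the 75th percentile of the array, so a level of 0 equals that percentile, and levels of different probes are not comparable. Values of a group are listed in the order of replicates 1, 2 and 3, which the file headers show to be 3 slides with 1 array of each group. Within every slide control, neomycin and both-compound arrays lay in fixed places, so place and group cannot be told apart. The 75th percentile of the signal ranged from 105 to 137 intensity units in the controls, from 142 to 170 with neomycin and from 151 to 226 with both compounds. The share of probes well above background ranged from 65.6% to 69.2%, from 69.9% to 70.7% and from 69.7% to 73.8% in the same order. Correlations between arrays of a group lay between 0.980 and 0.986. Both-compound 1 was the highest array in both signal measures (226 and 73.8%), with 174 and 71.5% on the next. Without it, 3 members rose and 1 fell against neomycin, and 5 rose and 1 fell against control. For that fit the shares of all genes are not given, so these counts cannot be read as particular to the carriers. The part of signal strength in the results below was not tested.

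After neomycin alone, none of the 192 tested solute carriers passed the test against control (limma, Benjamini-Hochberg adjusted p under 0.05 over all 31671 probes tested), where 0.159% of the 11326 genes tested passed. At an unadjusted p under 0.05, 18 members (9.38%) passed beside 8.18% of all genes. The 3 neomycin arrays did not overlap with the 3 controls for 28 members (14.6%) beside 13.5% of all genes. No member was called by any of its probes, where 0.203% of all genes were. The median difference was -0.05 over the members and -0.01 over all genes, both on the log2 scale. These shares lay near those of the array as a whole.

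With both compounds, a small number of carriers were higher and fewer were lower. The higher ones included carriers of phosphate, dicarboxylates, amino acids, bile acids, monocarboxylates, chloride and bicarbonate, zinc and riboflavin. Most of these solutes had 1 rise per comparison at the most, and several had a rise in 1 comparison only. Against neomycin, 10 members passed the test, 5.21% of those tested beside 2.75% of all genes. Of these, 8 rose (4.17% beside 1.92%) and 2 fell (1.04% beside 0.839%). Against control, 9 members passed, 4.69% beside 5.66% of all genes, of which 8 rose (4.17% beside 3.37%) and 1 fell (0.521% beside 2.29%). The share called against control thus lay below that of all genes. With normexp background correction the split against control was 19 higher and 37 lower, and with quantile normalization added to it 7 and 0. Under normexp alone the median difference of all probes was -0.20. The shares of all genes called under these settings are not given, so these counts cannot be read as particular to the carriers. Both comparisons use the same both-compound arrays, so they are not independent. In all, 15 genes passed in one or the other, and 4 passed in each: slc16a9b, slc20a1b, slc7a3a and slc6a22.2. All of these calls had the same direction on each of the 3 slides, and in each the groups compared did not overlap. The test favours genes whose groups do not overlap, and such genes have 1 direction on all slides, so neither is separate support for the calls. The median difference from neomycin was 0.05 over the members and -0.03 over all genes, and 59.9% of members lay above 0 beside 46.4% of all genes. At an unadjusted p under 0.05, 43 members (22.4%) passed against neomycin beside 17.4% of all genes, and 49 (25.5%) against control beside 22.0%. Groups did not overlap for 61 members (31.8%) against neomycin beside 26.8%, and for 56 (29.2%) against control beside 29.9%.

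**Figure D1:**
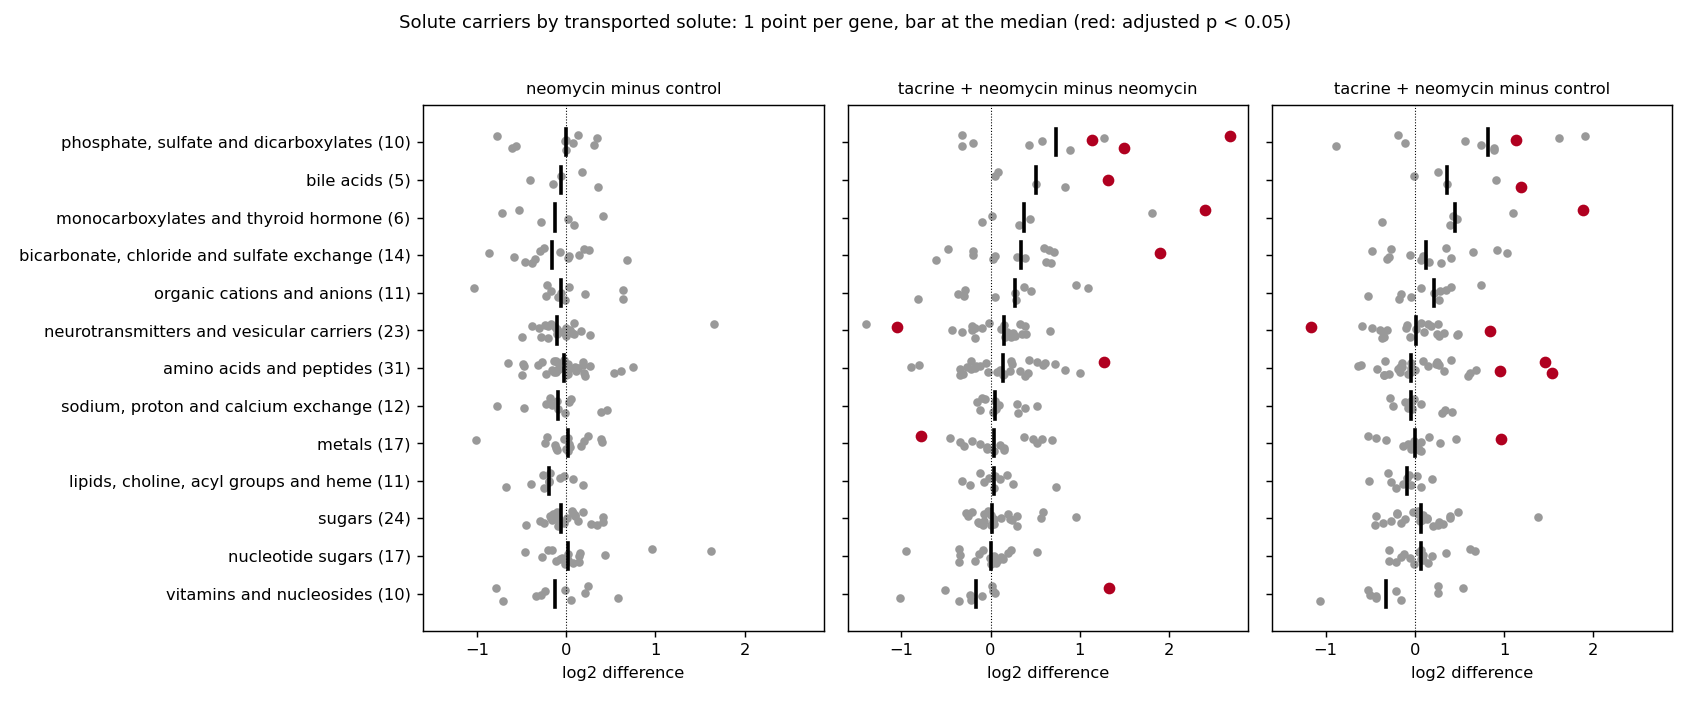
Log2 difference of each tested solute carrier (1 point per gene) in the 3 comparisons, by class of solute with the number of tested genes in brackets; the black bar is the class median and red marks an adjusted p under 0.05. Against neomycin the 10 members of the phosphate, sulfate and dicarboxylate families have a median of 0.73 and the 24 of the sugar families 0.02.

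Classes of solute follow the family number, so a class can hold members that carry other solutes. Split by solute, the class with the highest median in both comparisons with tacrine was that of phosphate, sulfate and dicarboxylates. Its 10 tested members had a median difference of 0.73 from neomycin and of 0.81 from control, and -0.00 for neomycin against control. The antisense gene slc34a2aas is counted among them. Against neomycin 3 of the 10 rose and none fell, where 1.92% of all genes rose and 0.839% fell. The 5 members of the bile acid families had medians of 0.51 and 0.36 against neomycin and control, with 1 rise in each comparison. The rise against control was that of the bile acid carrier slc10a2. That against neomycin was slc10a4, a relative of these carriers. The 6 monocarboxylate carriers had medians of 0.38 and 0.45, with 1 rise in each. The 14 carriers of bicarbonate, chloride and sulfate had a median of 0.34 and 1 rise against neomycin. The 31 amino acid and peptide carriers had medians of 0.14 and -0.04, with 1 rise against neomycin and 3 against control. By the brightest probe no call was made among the 24 members of the sugar families (medians 0.02 and 0.07). The same held for the 17 nucleotide sugar carriers (0.01 and 0.07) and the 11 carriers of organic cations and anions (0.27 and 0.21). It also held for the 12 exchangers of sodium, protons and calcium (0.06 and -0.04) and the 11 carriers of lipids, choline, acyl groups and heme (0.04 and -0.09). By another probe, seen after the values were known, slc5a1 of the sugar families passed against control (0.68, limma adjusted p = 0.0453). Beside the rises of all these classes, 1.92% of all genes rose against neomycin and 3.37% against control. The differences between the classes themselves were not tested, and the first class was singled out by its median in these same data.

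Among the phosphate carriers, slc34a2a showed the largest difference from neomycin of all members. It encodes a sodium-dependent phosphate cotransporter whose mammalian counterpart works at the luminal membrane of the small intestine. Its level was 1.33, 0.28 and -0.03 with both compounds, -2.54, -2.79 and -1.14 with neomycin, and -0.98, -1.93 and -1.22 in the controls. All 3 both-compound arrays lay above the other 6, which overlapped among themselves. The difference from neomycin was 2.68 ± 0.49 (SE), a 6.42-fold higher signal (adjusted p = 0.0263, limma; 0.0397 when slides entered the fit as a block). On the 3 slides it was 3.87, 3.07 and 1.11. The call was lost without neomycin 1, neomycin 2, both-compound 1 or both-compound 2 (adjusted p between 0.0637 and 0.0921, difference between 2.28 and 2.81). Against control the difference was 1.90 ± 0.49 and did not pass (adjusted p = 0.0548). The antisense gene slc34a2aas had a difference of -0.32 from neomycin (adjusted p = 0.565). The paralogue slc34a2b was above background on 2 arrays, both of neomycin, and was not tested.

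Family 20 encodes the other type of sodium-phosphate cotransporter, known also as receptors of gammaretroviruses in mammals. The level of slc20a1b was 5.20, 4.37 and 4.51 with both compounds, 3.69, 3.51 and 3.47 with neomycin, and 3.53, 3.50 and 3.66 in the controls. Control and neomycin arrays lay within a narrow band and the both-compound arrays all lay above it. The difference was 1.14 ± 0.21 from neomycin (2.20-fold, adjusted p = 0.0274) and 1.13 ± 0.21 from control (2.19-fold, adjusted p = 0.0184), and all 3 of its probes passed in each comparison. The call against neomycin was lost without any 1 of the neomycin arrays or both-compound 3 (adjusted p between 0.0556 and 0.0903), and that against control without control 1 or control 2 (0.0507 and 0.0561). The paralogues slc20a1a (0.57 ± 0.18, adjusted p = 0.148) and slc20a2 (1.28 ± 0.46, adjusted p = 0.196) did not pass against neomycin by their brightest probe. The 3 probes of slc20a2 disagreed: one, chosen after its values were seen, passed with 1.13 against neomycin (adjusted p = 0.046) and 1.24 against control (0.022), and another lay at -0.14 and -0.42.

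In family 13, slc13a2 encodes a sodium-coupled carrier of citrate and succinate, found in mammals at the luminal membrane of kidney and gut. Its level was 1.99, 2.07 and 1.81 with both compounds, 0.43, 0.53 and 0.42 with neomycin, and 0.83, 0.64 and 1.72 in the controls. The neomycin arrays lay below all controls and the both-compound arrays above all others, with control 3 close to them. The difference from neomycin was 1.50 ± 0.25 (2.82-fold, adjusted p = 0.0203), and both of its probes passed. The call was lost without any 1 neomycin array, both-compound 1 or both-compound 2 (adjusted p between 0.0597 and 0.0804), while the difference stayed between 1.44 and 1.53. Against control it was 0.89 ± 0.25 (adjusted p = 0.0745). Of the other family members, slc13a3, a dicarboxylate carrier, was lowest with -0.32 against neomycin (adjusted p = 0.704).

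**Figure D2:**
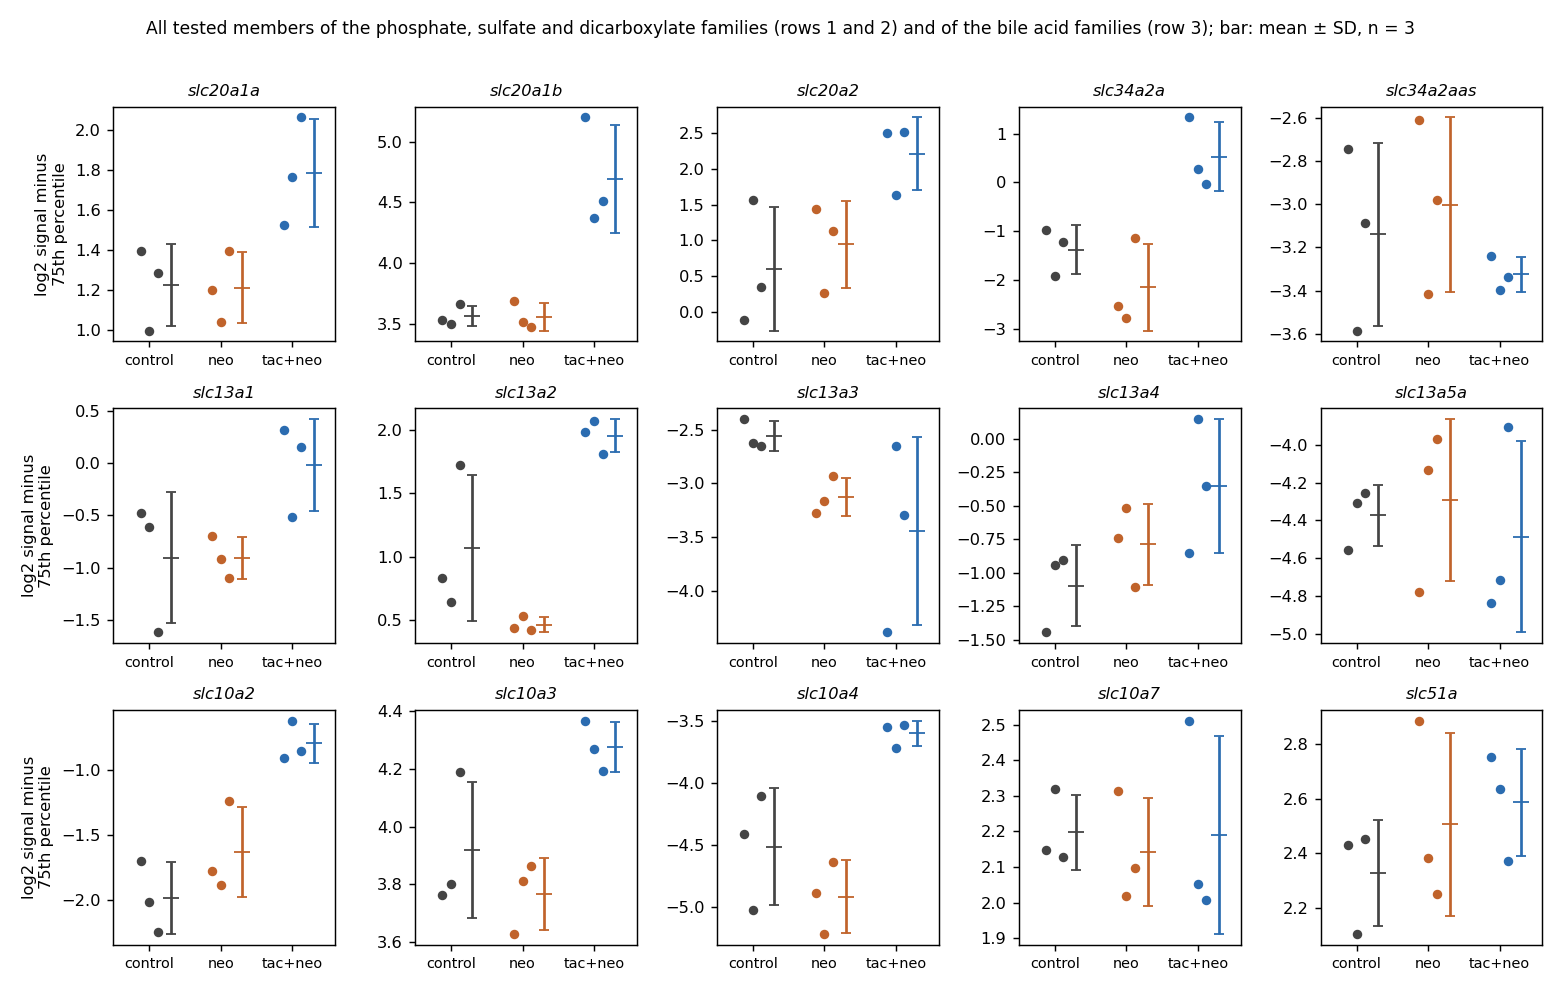
Level on each array (log2 signal minus the array's 75th percentile) of all tested members of the phosphate, sulfate and dicarboxylate families (rows 1 and 2) and of the bile acid families (row 3); points are arrays of the control, neomycin (neo) and both-compound (tac+neo) groups, and bars are mean ± SD (n = 3). The both-compound points of slc34a2a, slc20a1b, slc13a2, slc10a2 and slc10a4 lie above the points of both other groups, while those of slc10a7, slc51a and slc13a5a overlap with them.

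A list of 20 genes of phosphate regulation, which holds hormones, receptors, enzymes and other proteins, was set beside these carriers. Of the list, 14 were matched on the array and 13 tested. Of these 13, 1 passed against neomycin and none against control, where 2.75% and 5.66% of all genes passed. This was pth1a, which encodes a parathyroid hormone. It had a level of -0.81, -0.05 and -0.70 with both compounds, -1.72, -4.00 and -4.06 with neomycin and -2.23, -2.02 and -2.91 in the controls. The difference from neomycin was 2.74 ± 0.58 (adjusted p = 0.0438; 0.058 when slides entered the fit as a block). Here neomycin 1 lay above the controls, and the other 2 neomycin arrays lay below them. The gene for the phosphate-lowering hormone fgf23 was above background on none of the 9 arrays and was not tested.

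All 5 members of the bile acid families were tested. By their brightest probes all 5 lay above 0 against neomycin, as did 46.4% of all genes. Of these, slc10a7 (0.05 ± 0.17) and slc51a (0.08 ± 0.20) lay within their SE of 0, and another probe of slc10a7 lay at -0.07. The sodium-dependent bile acid carrier of the ileum in mammals is encoded by slc10a2. The level of its brighter probe was -0.91, -0.62 and -0.85 with both compounds, -1.77, -1.88 and -1.24 with neomycin, and -1.70, -2.01 and -2.25 in the controls. Both-compound arrays lay above all others. The difference from control was 1.19 ± 0.21 (2.28-fold, adjusted p = 0.0153) and that from neomycin 0.84 ± 0.21 (adjusted p = 0.0763). The call was lost without control 3 or both-compound 2 (adjusted p = 0.0527 and 0.0539), and when the probes of the gene were averaged (0.85, adjusted p = 0.362). The second, dimmer probe of slc10a2 read 0.06, -2.79 and -1.03 with both compounds, -6.52, -2.03 and -5.40 with neomycin and -0.94, -2.10 and -2.25 in the controls, and passed in no comparison.

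The synaptic vesicle protein of cholinergic and monoaminergic neurons known from mammals as a relative of the bile acid carriers is encoded by slc10a4. Its probe was dim, at -3.55, -3.71 and -3.53 with both compounds, -4.89, -5.22 and -4.64 with neomycin and -4.41, -5.02 and -4.10 in the controls. It was above background on 3 both-compound arrays and on 2 arrays of each other group. The difference from neomycin was 1.32 ± 0.24 (2.49-fold, adjusted p = 0.0272), and that from control 0.91 ± 0.24 (adjusted p = 0.0602; 0.0235 when slides entered the fit as a block). The call against neomycin was lost without neomycin 1, neomycin 2 or any both-compound array (adjusted p between 0.0667 and 0.102). It was also lost with normexp background correction, which adds an offset of 50 to every signal and gave a difference of 0.12 (adjusted p = 0.632). The remaining members did not pass: slc10a3, a relative with no settled substrate, had 0.51 ± 0.15 against neomycin (adjusted p = 0.128). The lowest was slc10a7, with 0.05 (adjusted p = 0.92). In the list of bile acid synthesis and export, 10 of 20 genes were matched on the array and 9 tested. Of these 9, 1 passed against neomycin and none against control, where 2.75% and 5.66% of all genes passed. This was abcg5, a subunit of a sterol exporter, with 1.07 ± 0.21 (adjusted p = 0.0359; 0.051 when slides entered the fit as a block). For cyp7a1, the rate-limiting enzyme of bile acid synthesis, the level was -1.06, 0.52 and 0.66 with both compounds, 1.15, 0.63 and 0.21 with neomycin, and -1.71, -1.25 and -1.50 in the controls, and no comparison passed (adjusted p = 0.146 for neomycin against control).

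Among the 31 tested amino acid and peptide carriers, slc7a3a was the one that passed in both comparisons. It encodes a carrier of cationic amino acids such as arginine and lysine. Its level was 2.67, 2.29 and 2.54 with both compounds, 1.18, 1.13 and 1.39 with neomycin, and 0.81, 1.21 and 1.1 in the controls. Control and neomycin arrays overlapped and the both-compound arrays lay more than the spread of either group above them. The difference was 1.27 ± 0.16 from neomycin (2.41-fold, adjusted p = 0.00668) and 1.46 ± 0.16 from control (2.75-fold, adjusted p = 0.00181). Both calls held for both of its probes, with the slide as a block (0.0194 and 0.00738) and in all 9 fits that left out 1 array.

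A carrier of the small neutral amino acids alanine, serine and cysteine is encoded by slc1a4. Its level was -2.07, -2.41 and -1.50 with both compounds, -2.85, -3.17 and -2.98 with neomycin, and -3.95, -3.36 and -3.30 in the controls. The 3 groups did not overlap and neomycin lay in between. The difference from control was 1.54 ± 0.26 (2.91-fold, adjusted p = 0.0118) and held in all 9 fits that left out 1 array. That from neomycin was 1.00 ± 0.26 (adjusted p = 0.0791), and that of neomycin from control 0.54 ± 0.26 (adjusted p = 0.599). With normexp background correction the difference from control was 0.18 (adjusted p = 0.293).

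The same order of groups was seen for slc38a11, a member of the family of sodium-coupled neutral amino acid carriers. Its level was -0.90, -1.59 and -1.43 with both compounds, -1.45, -1.63 and -1.85 with neomycin and -2.33, -2.32 and -2.12 in the controls. Here neomycin and both-compound arrays overlapped and the controls lay below both. The difference from control was 0.95 ± 0.20 (1.93-fold, adjusted p = 0.0269), and that from neomycin 0.33 ± 0.20 (adjusted p = 0.431). The call was lost without any 1 control array, both-compound 1 or both-compound 3 (adjusted p between 0.0588 and 0.0738), and with normexp background correction (0.28, adjusted p = 0.14).

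In the other amino acid families few members came near the threshold. Within family 38 the differences from neomycin ran from -0.89 for slc38a9 (adjusted p = 0.155), the lysosomal arginine sensor that acts upstream of mTORC1 in human cells, to 0.84 for slc38a4 (adjusted p = 0.0802), a carrier of neutral amino acids. By its brightest probe, slc38a4 read 5.15, 5.72 and 5.59 with both compounds, 4.37, 4.73 and 4.83 with neomycin and 4.47, 4.97 and 4.96 in the controls. It passed in both comparisons with the slide as a block (0.0194 and 0.02), and 2 of its other probes passed against neomycin, which was seen after its values were known. Family 43, whose members were all placed in the amino acid class by family number, ran from -0.80 for slc43a2b to 0.72 for slc43a3b. Family 15, the peptide carriers, had 2 members at 0.14 and 0.38. The lowest members of families 1 and 7 against neomycin were slc1a1 (-0.34) and slc7a6os (-0.22).

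A list of 18 genes of the response to amino acid shortage was set beside these carriers, of which 14 were matched on the array and tested. Of these 14, 3 passed against neomycin and 3 against control, all higher, where 2.75% and 5.66% of all genes passed. The pseudokinase gene trib3 had differences of 1.06 ± 0.19 and 1.59 ± 0.19, and cebpb, a transcription factor gene, 0.93 ± 0.20 and 2.14 ± 0.20. The mTORC1 inhibitor gene ddit4 passed against neomycin (1.96 ± 0.29), and sesn2, which encodes a leucine sensor, against control (1.21 ± 0.18). The defining genes atf4a and asns did not pass in either comparison, and atf4a lay on the other side of 0. It had -0.12 ± 0.24 against neomycin and -0.60 ± 0.24 against control (adjusted p = 0.848 and 0.182). For asns the differences were 0.42 ± 0.20 and 0.73 ± 0.20 (adjusted p = 0.323 and 0.0687). The stress gene ddit3 had 0.02 and 0.10.

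Of the 14 tested carriers of bicarbonate, chloride and sulfate, slc26a3.2 passed against neomycin. In mammals slc26a3 is the chloride and bicarbonate exchanger of the colon. Its level was -0.25, -0.95 and -1.27 with both compounds, -3.48, -2.50 and -2.19 with neomycin, and -2.20, -1.31 and -2.06 in the controls. The both-compound arrays lay above all others, narrowly so against control 2, and neomycin 1 lay far below the rest. The difference from neomycin was 1.90 ± 0.39 (3.72-fold, adjusted p = 0.0404), and on the 3 slides 3.23, 1.55 and 0.92. It did not pass with the slide as a block (adjusted p = 0.0699), nor without control 3, neomycin 1, neomycin 2 or any both-compound array (adjusted p between 0.0602 and 0.137). Against control it was 1.03 ± 0.39 (adjusted p = 0.159). The lowest member of family 26 against neomycin was slc26a11 with -0.20.

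The other ion exchangers gave no calls. Family 4, the bicarbonate carriers, ran from -0.47 for slc4a2b to 0.66 for slc4a2a against neomycin. Family 12, the cation-chloride cotransporters, ran from -0.61 for slc12a10.3 (adjusted p = 0.434) to 0.68 for slc12a10.1 (adjusted p = 0.138). The second tested probe of slc12a10.3 lay at 0.23. In family 8, the sodium-calcium exchangers, the highest was slc8a4b with 0.53 (adjusted p = 0.306) and the lowest slc8a2a with -0.12. Family 9, the sodium-proton exchangers, stayed between -0.15 (slc9a6a) and 0.30 (slc9a5). In family 24 the pigment cell exchanger slc24a5 lay at 0.03 and slc24a4a at 0.31. For comparison, the median SE of a member's difference was 0.21 over all 192. The motor protein of mammalian outer hair cells, slc26a5, was higher on all 3 both-compound arrays (2.34, 1.93 and 2.18) than with neomycin (1.36, 1.23 and 1.71) or in the controls (1.60, 1.19 and 1.70). It passed with the slide as a block (adjusted p = 0.0464 and 0.0371 against neomycin and control) and not without it (0.0963 and 0.0885), and was singled out after its values were seen.

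Of 39 listed genes for ion pumps, channels and their regulators, 31 were matched on the array and tested. Of these 31, 2 rose against neomycin and 1 against control, where 1.92% and 3.37% of all genes rose. The first, sgk1, encodes a kinase that raises the activity of sodium channels and several carriers, and had differences of 1.09 ± 0.21 and 1.06 ± 0.21. The second, hsd11b2, encodes the enzyme that inactivates cortisol and had 1.34 ± 0.21 against neomycin and 0.34 ± 0.21 against control (adjusted p = 0.385). Its level was 2.90, 2.79 and 2.89 with both compounds, 1.47, 1.16 and 1.93 with neomycin and 2.80, 2.33 and 2.43 in the controls. With the slide as a block atp1a3a, a sodium pump subunit gene, also passed against control (0.74, adjusted p = 0.0188; 0.0569 without the block).

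The smallest p of all members against neomycin belonged to slc16a9b. It encodes monocarboxylate transporter 9, which in human is linked to carnitine. Its level was 2.80, 2.42 and 1.88 with both compounds, -0.07, -0.03 and -0.03 with neomycin and 0.57, 0.48 and 0.41 in the controls. The 3 groups were separate, with neomycin lowest and both compounds highest. The difference was 2.41 ± 0.21 from neomycin (5.31-fold, adjusted p = 0.00155) and 1.88 ± 0.21 from control (3.68-fold, adjusted p = 0.00176), whereas that of neomycin from control, -0.53 ± 0.21, did not pass (adjusted p = 0.485). Both calls held for both of its probes, with the slide as a block (0.00785 and 0.00555) and in all 9 fits that left out 1 array. Its paralogue slc16a9a read 3.61, 2.79 and 2.07 with both compounds, 0.96, 1.33 and 0.74 with neomycin and 2.02, 2.31 and 0.85 in the controls. Its difference from neomycin, 1.81 ± 0.45, passed with the slide as a block (adjusted p = 0.0326) and not without it (0.0733). The lowest of the 6 tested monocarboxylate carriers was slc16a12b with -0.09.

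**Figure D3:**
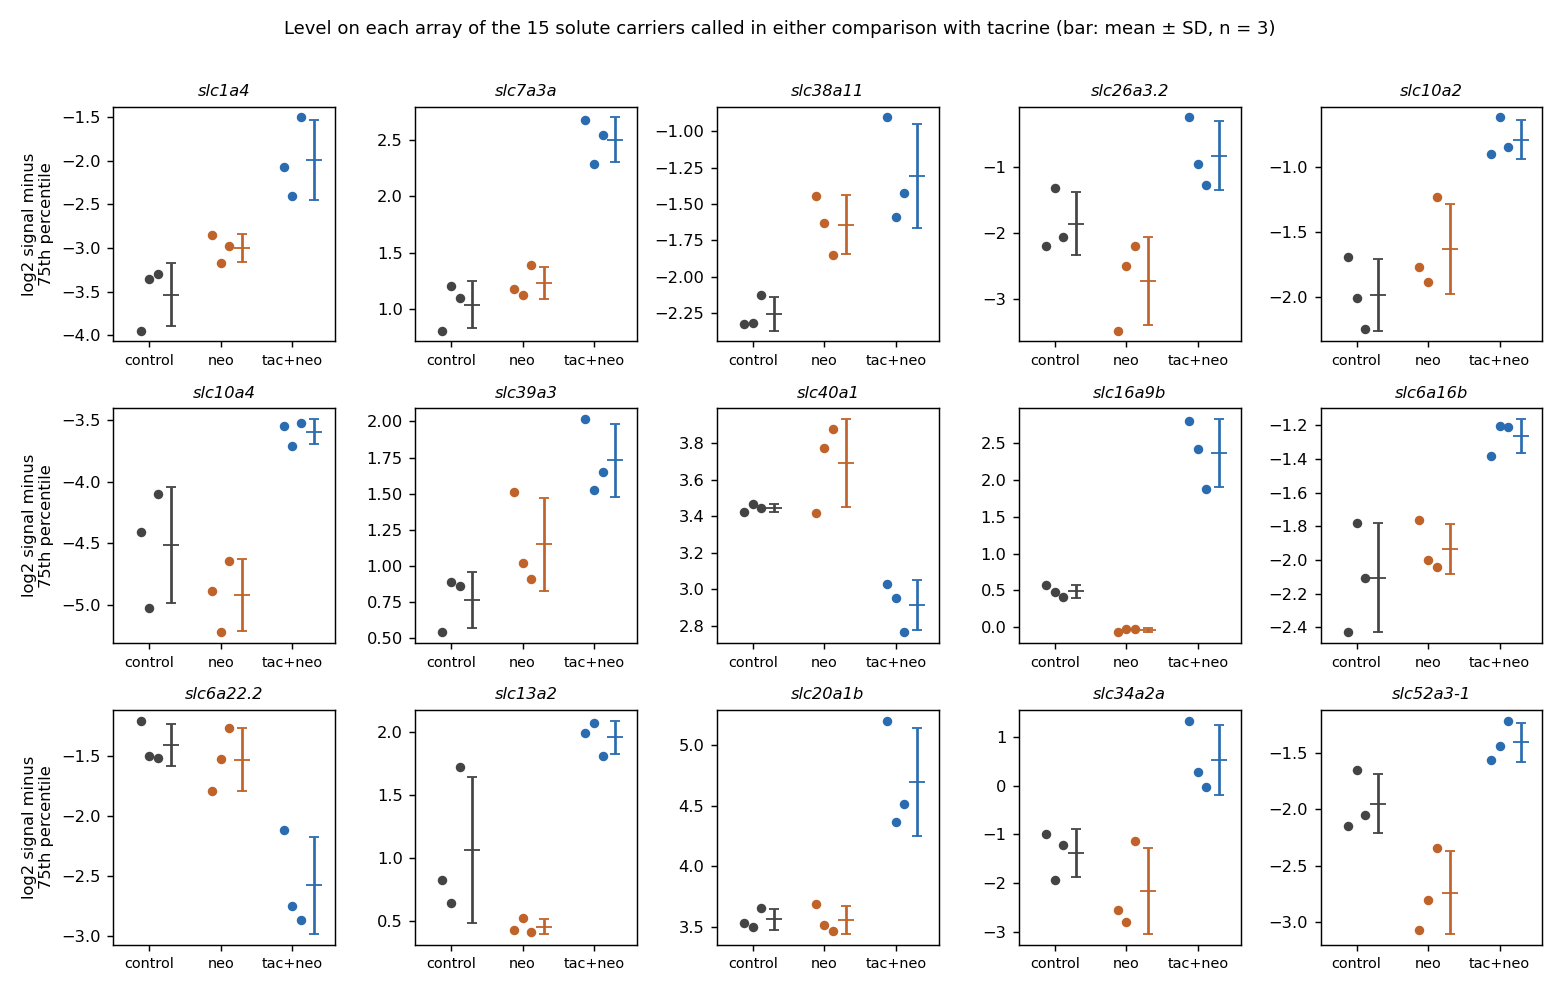
Level on each array (log2 signal minus the array's 75th percentile) of the 15 solute carriers that passed the test in either comparison with tacrine; points are arrays of the control, neomycin (neo) and both-compound (tac+neo) groups, and bars are mean ± SD (n = 3). For slc7a3a and slc20a1b the control and neomycin points share 1 band below the both-compound points, while for slc16a9b the neomycin points lie below the controls.

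Falls were called for 0.839% of all genes against neomycin and for 2.29% against control. Of the 23 tested carriers of neurotransmitters and relatives, 1 was lower in both comparisons. This was slc6a22.2, a member of the sodium- and chloride-coupled family 6. Its level was -2.11, -2.75 and -2.87 with both compounds, -1.79, -1.53 and -1.27 with neomycin and -1.21, -1.50 and -1.52 in the controls. The both-compound arrays lay below all others. It fell by 1.05 ± 0.23 on the log2 scale against neomycin (adjusted p = 0.0468) and by 1.17 ± 0.23 against control (adjusted p = 0.0209). The first call did not hold with the slide as a block (0.0699) and held in 1 of the 9 fits that left out 1 array, the one without both-compound 1 (without the others, adjusted p between 0.0516 and 0.143). The second was lost without any 1 control array, both-compound 2 or both-compound 3 (adjusted p between 0.0506 and 0.0717).

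In the same family, slc6a16b, a relative with no settled substrate, passed against control, where 3.37% of all genes rose. Its level was -1.38, -1.20 and -1.21 with both compounds, -1.76, -2.00 and -2.04 with neomycin and -2.43, -1.78 and -2.10 in the controls. Both-compound arrays lay above the other 6, which overlapped. The difference was 0.84 ± 0.18 from control (1.79-fold, adjusted p = 0.03) and 0.67 ± 0.18 from neomycin (adjusted p = 0.0921). Of its 3 tested probes 1 passed, and the call was lost without control 1, control 3 or any both-compound array (adjusted p between 0.0655 and 0.0962). With normexp background correction it was 0.25 (adjusted p = 0.0959). The vesicular acetylcholine transporters slc18a3a and slc18a3b lay at 0.35 and 0.40 against neomycin and did not pass.

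Among the 17 tested carriers of metals, 1 of iron fell against neomycin and 1 of zinc rose against control. Of all genes, 0.839% fell against neomycin and 3.37% rose against control. Ferroportin, the exporter of iron from cells, is encoded by slc40a1. Its level was 3.03, 2.95 and 2.76 with both compounds, 3.42, 3.77 and 3.88 with neomycin and 3.42, 3.47 and 3.44 in the controls, so the both-compound arrays lay below all others. It fell by 0.78 ± 0.15 on the log2 scale against neomycin (adjusted p = 0.0362), and 3 of its 4 probes passed. The call did not hold with the slide as a block (0.056), and held in the fits without control 1 and without neomycin 1 alone (in the others, adjusted p between 0.0555 and 0.119). Against control its brightest probe had -0.53 ± 0.15 (adjusted p = 0.079), and 2 of its other probes passed. The zinc importer slc39a3 read 2.02, 1.53 and 1.65 with both compounds, 1.51, 1.02 and 0.91 with neomycin and 0.54, 0.89 and 0.86 in the controls. By this probe, its brightest, the 3 groups did not overlap, though narrowly. The lowest neomycin array (0.91) lay just above the highest control (0.89), and the lowest both-compound array (1.53) just above the highest neomycin array (1.51). Neomycin lay below all controls by 1 of the other probes (difference -0.16) and above them by the other (0.94). By its brightest probe slc39a3 was 0.97 ± 0.21 higher than in control (1.96-fold, adjusted p = 0.0291), and its other probes passed with 0.64 and 1.55. The call was lost without any 1 control or both-compound array (adjusted p between 0.0517 and 0.0944).

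Of the 10 carriers of vitamins and nucleosides, slc52a3-1, a riboflavin carrier, passed against neomycin, where 1.92% of all genes rose. Its level was -1.56, -1.44 and -1.22 with both compounds, -3.07, -2.80 and -2.34 with neomycin and -2.15, -1.66 and -2.05 in the controls. The neomycin arrays lay below all controls and the both-compound arrays above them. The difference from neomycin was 1.33 ± 0.22 (2.51-fold, adjusted p = 0.0171), and that from control 0.54 ± 0.22 (adjusted p = 0.177). The call was lost without neomycin 2 or any both-compound array (adjusted p between 0.0512 and 0.0617). The other tested members of its family, slc52a2 and slc52a3-2b, lay at -0.51 and 0.02 against neomycin and did not pass. The class of vitamins and nucleosides had medians of -0.16 from neomycin and -0.32 from control.

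**Figure D4:**
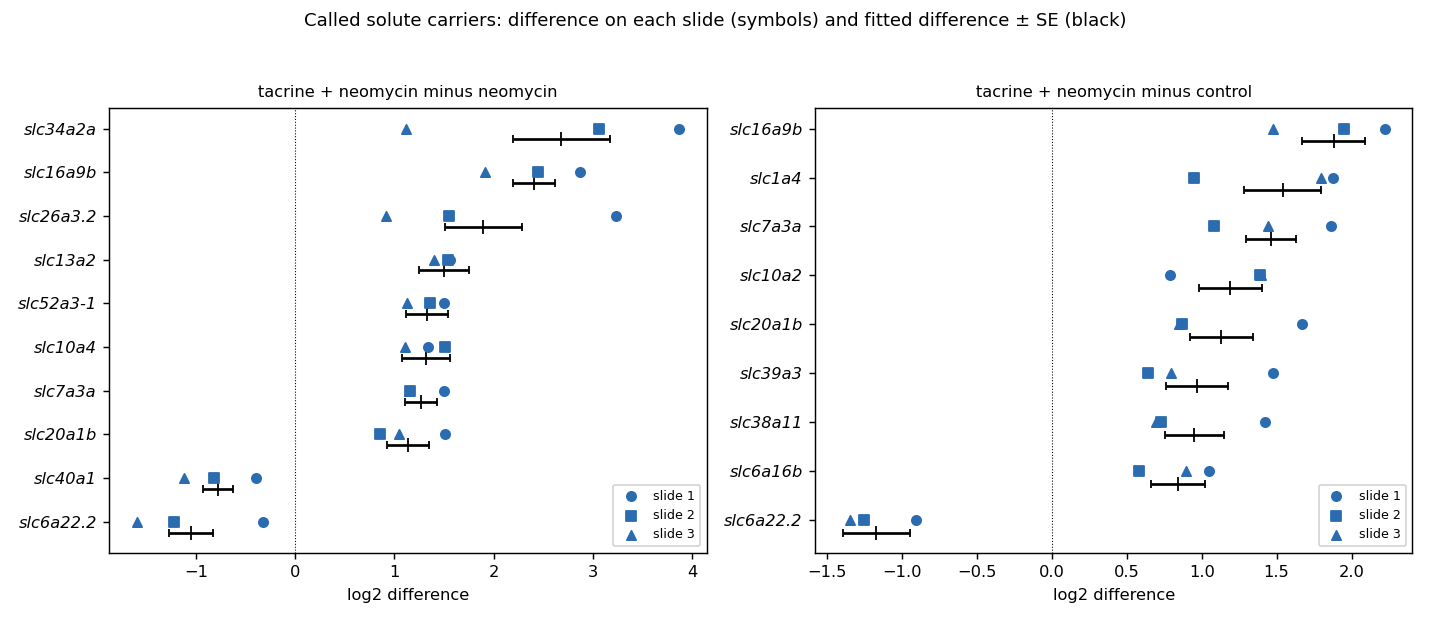
Log2 difference of each called solute carrier on each of the 3 slides (symbols) and the fitted difference ± SE (black), for both compounds against neomycin (left) and against control (right). Every symbol lies on the side of 0 that the fitted value has, and the slides range most widely for slc34a2a (1.11 to 3.87) and slc26a3.2 (0.92 to 3.23).

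Between slides the size of several differences varied, while their direction, which groups without overlap fix in advance, did not. With the slide as a replicate block, 7 of the 10 calls against neomycin and all 9 against control held. The 3 that did not were slc26a3.2, slc40a1 and slc6a22.2. The block added 4 calls in each comparison, all higher: slc26a5, slc38a4 and slc47a2.1 in both, slc16a9a against neomycin and slc10a4 against control. For slc47a2.1, of the organic cation and proton exchangers, the differences were 0.96 and 0.75 (adjusted p = 0.0315 and 0.0386 with the block, 0.0993 and 0.138 without). In the fits that left out 1 array, 2 of the 10 calls against neomycin held in all 9 (slc16a9b and slc7a3a) and 3 of the 9 against control (these and slc1a4). The shares of all genes called with the block or without 1 array are not given. The counts from these fits thus cannot be read as particular to the carriers. Another choice of probe also bore on the counts. Counting a gene as called when any of its probes passed gave 13 members (6.77%) against neomycin beside 3.63% of all genes, and 16 (8.33%) against control beside 8.41%. For the 94 members with more than 1 tested probe, all probes had the same sign in 67 against neomycin and in 69 against control.

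After neomycin alone, the 5 members with the smallest p are given as differences that did not pass. The taurine carrier slc6a6b read -1.38, -0.57 and -0.05 with neomycin, -1.96, -2.36 and -2.63 in the controls and -2.84, -1.55 and -1.80 with both compounds. Neomycin arrays lay above both other groups, with a difference of 1.65 ± 0.40 from control (adjusted p = 0.232). The organic anion carrier slc22a7a had 0.64 ± 0.13 (adjusted p = 0.146), and its relative slc22a7b.1 -1.03 ± 0.33 (adjusted p = 0.353), the largest negative difference of the members. The 4 probes of slc22a7b.1 ran from -1.03 to 0.09. The riboflavin carrier slc52a3-1 had -0.79 ± 0.22 (adjusted p = 0.289), and the sodium-calcium exchanger slc8a4b -0.77 ± 0.24 (adjusted p = 0.352).

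The 30 members that were not tested were above background on 2 arrays or fewer, and 18 of them on none. Of these, 9 were seen on both-compound arrays alone (slc12a8, slc1a3b, slc30a1b, slc35a3b, slc39a10, slc5a5, slc8a1a, slc8a1b and slc9a3.1) and 2 on neomycin arrays alone (slc34a2b and slc6a6a). The share of probes well above background ranged from 69.7% to 73.8% on both-compound arrays, from 69.9% to 70.7% with neomycin and from 65.6% to 69.2% in the controls. The part of this share in the count was not tested. Counted over all 222 members, 172 were above background on every control array, 180 on every neomycin array and 184 on every both-compound array. The same counts over all genes are not given, so none of these can be read as particular to the carriers.

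Markers of the tissues that use these carriers were read on the same arrays. All 5 intestinal, all 7 ionocyte, all 6 pronephros and all 4 liver markers on the array were tested, and of these lrp2a, the endocytic receptor of the pronephros, was the one that passed in any comparison (1.07 ± 0.25 against control). Against neomycin lrp2a had 0.85 ± 0.25 and passed with the slide as a block (adjusted p = 0.033) and not without it (0.117). Of all genes, 2.75% passed against neomycin and 5.66% against control. The log2 of the summed signal of the intestinal markers ranged from 6.42 to 7.02 in the controls, from 6.55 to 6.67 with neomycin and from 6.25 to 6.50 with both compounds. That of the ionocyte markers ranged from 6.26 to 6.40, from 6.13 to 6.46 and from 6.15 to 6.45 in the same order. For the pronephros it ranged from 4.42 to 4.67, from 4.39 to 4.64 and from 4.25 to 4.61, and for the liver from 8.08 to 8.85, from 7.91 to 7.97 and from 7.79 to 7.98. A sum mostly follows its brightest genes. The brightest pronephros marker, atp1a1a.4, had -0.38 against neomycin and -0.47 against control, while the medians of the pronephros markers were 0.17 and 0.24. Marker medians were -0.06 and -0.09 for ionocytes, -0.18 and -0.14 for the intestine and 0.13 and -0.45 for the liver. The neuron markers ranged from 5.03 to 5.37, from 5.09 to 5.25 and from 5.04 to 5.17, and none of the 4 passed. The part of these tissue levels in the differences of the carriers was not tested.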

How the data were processed

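RNA of 9 whole-larva samples was hybridised to single-colour arrays, 1 per sample, 3 per group. The authors deposited scanner files of linear spot intensity, per the file headers, with quality flags (another unit, 0 or 1) for spots above background, saturated or outlying. Background was corrected in the processed signal by Feature Extraction 10.1.1.1 per the file headers; the submitters' processing notes name 8.0. The authors also deposited a log2 matrix (column medians 7.11 to 7.12), whose normalization, centring and reference are not given in the sources used here; each column correlates with its own array (r between 0.981 and 0.986).

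Spots of a probe were averaged as log2, outliers left out, and each array's 75th percentile over non-control probes was subtracted. A probe entered the test when 3 or more of its 9 arrays were well above background, which left 31671 of 43603 probes, fitted with limma 3.58.1 in R 4.3.3 (lmFit, eBayes, two-sided, 6 residual and 3.11 prior degrees of freedom), with Benjamini-Hochberg adjustment over all of them. No probe was saturated. Errors in the text are moderated SE of log2 differences; the number of arrays limits their precision. The fit was tested on simulated data. Probes were named through RefSeq accessions and the GRCz12tu gene table: 25173 have 1 symbol and 18430 none. Each gene stands for its brightest tested probe.

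The labels state 3 independent experiments per group, and the replicate number is the slide. Deviations from the group means of the 9 same-numbered pairs correlated at -0.08 to 0.26, with 6 over 0.1. Those of differently numbered arrays of 2 groups correlated at -0.29 to 0.12. Arrays of a slide thus shared some variation, which the main fit left out. The slide is a batch that holds every group, and its block is given where it changes a call of a named gene.

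The members and gene lists were chosen with earlier results of these data known, and no list was tested as a set. All called members are named, and with fewer than 5 calls the 5 members with the smallest p. The highest and lowest members are given for most of the ion, phosphate, amino acid and bile acid families. No positions or sequences are given.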

Additional observations from a re-analysis of the deposited data

How the results depend on the processing

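Of the 19 calls of named members, all 19 held when the filter asked for all arrays of a group, with an intensity trend and with array weights. With quantile normalization 18 held, 17 with the mean of the probes, 16 with the replicate block and 16 of 18 in the authors' matrix. With no filter 14 held, 14 in each normexp setting and 12 with only the 2 groups compared in the fit. All 19 also held with the probe of smallest p. This was fixed in advance, since the p of that probe cannot exceed that of the brightest. None of the 19 changed sign in any setting. In most settings, also with 1 array left out, the sign was fixed in advance. There the probe and its values stay the same, and the groups do not overlap. The counts moved more. The shares of all genes called in each setting are not given, so the counts that follow cannot be read as particular to the carriers. The 8 rises against neomycin became 22 with array weights and 5 with only the 2 groups, and 11 with the replicate block. They ranged from 2 (without neomycin 2) to 8 when 1 array was left out. The 2 falls against neomycin became 1 with quantile normalization, normexp and normexp with quantile, 0 with no filter, only the 2 groups or the replicate block, 4 with the mean of the probes and 5 with array weights, and 0 to 2 when 1 array was left out. Against control, the 8 rises became 19 with normexp, 12 with the replicate block, and 4 to 9 when 1 array was left out. The 1 fall became 37 with normexp, 0 with normexp and quantile normalization, 3 in the authors' matrix and with array weights, 5 with the probe of smallest p, 4 with the mean of the probes, 2 with a trend, and 0 to 1 when 1 array was left out. Array weights also gave 1 rise after neomycin alone, slc6a6b (2.21, adjusted p = 0.037). Under normexp the median difference of all probes was -0.12, -0.08 and -0.20 in the 3 comparisons. By construction its offset of 50 shrinks differences of dim probes, and 10 of the 19 called differences were smaller by over 1.5 times, as were 8 of 18 in the authors' matrix. Normexp with quantile normalization was added after seeing the data. On control 3, 3 probes had a local background more than 20 above their own signal, which broke the normexp fit of that array (an upper quartile 1.03 times the lower, 14.5 to 22.6 times on the others), so their background was set to the array's median, also after seeing the data. The cause of the other changes was not tested. Of the 19 called differences, that of the dim slc10a4 against neomycin shrank the most under normexp, to 0.0939 of its main value.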

Other observations

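Calls by a probe other than the brightest, seen after the values were known, concerned slc20a2, slc38a4 and slc39a3 against neomycin and slc1a1, slc20a2, slc31a1, slc40a1, slc5a1, slc6a22.1 and slc6a9 against control. Among those lower than in control were slc1a1 (-0.72), slc6a22.1 (-0.61) and slc40a1 (-1.17 and -1.19 by its 2 probes called). The probes of 1 member disagreed most for slc10a2, whose 2 probes differed by 2.56 on the log2 scale against neomycin. Of the members that did not pass against neomycin, 6 differed by at least 2-fold: slc16a9a, slc1a4, slc20a2, slc22a7b.1, slc28a1 and slc6a6b. Of these, slc28a1, a nucleoside carrier, had the smallest adjusted p (0.0731), with a difference of -1.02. Against control the 6 such members were slc16a9a, slc19a3b, slc20a2, slc26a3.2, slc34a2a and slc45a3.

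Of the markers of other tissues, 1 of 3 tested for hair cells passed, pvalb8, which lay lower with both compounds than in control (-0.82, adjusted p = 0.0366), at 4.24, 4.09 and 4.25 with both compounds, 4.28, 4.33 and 4.11 with neomycin, and 5.42, 4.88 and 4.74 in the controls. In that comparison s100t had -0.87 (adjusted p = 0.183) and atoh1a 0.18 (0.56). Of the 4 erythroid markers, gata1a rose against neomycin and control (1.12 and 0.96, adjusted p = 0.0446 and 0.0491), and lost both calls with the slide as a block (0.0582 and 0.0543), while the globin gene hbae1.1 had 0.23 and -0.34 and did not pass. Of the 5 markers of the exocrine pancreas, ela2 fell against control (-0.71, adjusted p = 0.0466), and so did prss1 (-0.63, 0.0394), though not with the block (0.0542). Of the 5 photoreceptor markers, pde6c rose against neomycin (0.93, adjusted p = 0.0353), though not with the block (0.0604). None of the 5 skeletal muscle or 4 leukocyte markers passed in any comparison. Beside these marker counts, 2.75% of all genes passed against neomycin and 5.66% against control.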
